A study of Homo sapiens with 6 samples.

Results

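Integrins, laminins and the genes of focal adhesions and hemidesmosomes were followed in HaCaT cells, an immortal human keratinocyte line that arose without a transforming virus. Members were chosen by symbol: every gene named as an integrin alpha or beta subunit, as a laminin chain or with a name built on these, plus 20 named genes of hemidesmosomes, anchoring and focal adhesions. They came to 65 of 19775 measured genes. Of these, 18 encode integrin alpha subunits, 7 integrin beta subunits, 10 laminin chains, 4 hemidesmosome or anchoring proteins, 7 integrin activators and proteins of the integrin-linked kinase complex, and 8 focal adhesion adaptors with their kinase. The remaining 11 carry an integrin or laminin name but encode neither a subunit nor a chain. LAMA3, COL17A1 and ITGB6 were not analysed here. Incubation lasted 12 h, in 3 cultures under negative pressure (a gradient of 125 mmHg) and in 3 at ambient pressure, all in the same serum-containing medium. Total RNA of each culture was read on its own Affymetrix array, as log2 values. The sample titles call the cultures biological replicates, and the number of arrays limits the precision of every value.

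Integrins are receptors of an alpha and a beta chain that hold a cell to the matrix beneath it. In basal keratinocytes, integrin alpha6 beta4 binds laminin-332 in the basement membrane and is tied through plectin and the epithelial form of dystonin to keratin filaments, which makes the hemidesmosome. Integrins with the beta1 or alphaV chain instead recruit talin, kindlins, paxillin, vinculin and focal adhesion kinase, and so join the matrix to actin in focal adhesions.

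No member passed an adjusted p of 0.05 in either direction in the limma fit over all genes, which called 182 genes (0.920%), with 120 (0.607%) higher under negative pressure and 62 (0.314%) lower. The lowest adjusted p among members was 0.0851, for ITGBL1. With the replicate number as a block 4 members passed, ITGBL1 and LAMB2 higher and ITGB3BP and LAMA2 lower, where the blocked fit called 976 genes (4.94%), 568 higher (2.87%) and 408 lower (2.06%). Without adjustment 9 members (13.8%) had a p under 0.05, against 11.7% of all genes, and for 11 (16.9%) the arrays of the groups did not overlap, against 17.3% of all genes. Both shares lay near the background. The members' median difference, negative minus ambient pressure, was 0.02 on the log2 scale, and that of all genes was 0.01. Differences lay above 0 in 34 of the 65 members and in 10568 of all 19775 genes. In size alone, the median member differed by 0.116 and the median gene by 0.118.

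Intervals give the precision of each difference for the probe set used. Other probe sets of a member could lie outside, as for DST, with an interval of 0.01 to 0.50 and another probe set at -0.56. For 49 members (75.4%) the 95% interval of the difference lay within 1.5-fold in either direction, against 77.1% of all genes. For 63 members it lay within 2-fold. The exceptions to the wider bound were ITGB8, with an interval of -1.11 to 0.75, and ITGBL1, with 0.40 to 1.19. With the replicate block 57 members lay within 1.5-fold and 64 within 2-fold, and the ITGB8 interval was -0.49 to 0.14. A level on these arrays depends on the probe set, so levels are not set against each other between genes. The median gene mean was 4.997, and 38 members lay above it. Of these 24 (63.2%) had an interval within 1.5-fold without the block, against 68.2% of all genes above it.

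**Figure D1:**
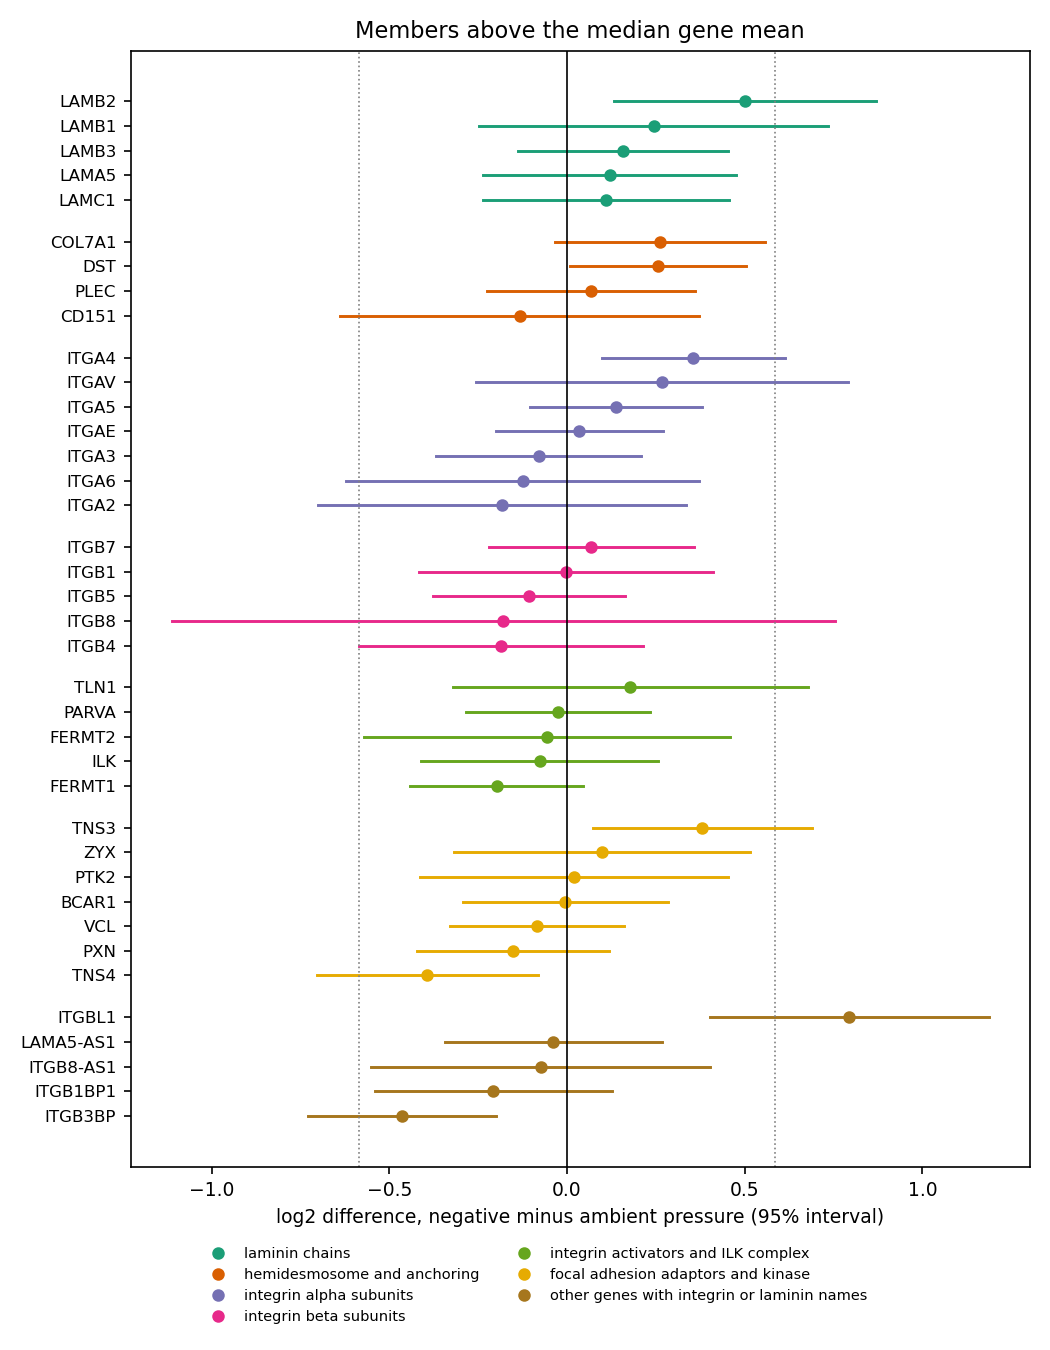
Log2 difference, negative minus ambient pressure, of the 38 members above the median gene mean, with the 95% interval of the limma fit (3 arrays per group). Rows are members grouped and coloured by role, and dotted lines mark 1.5-fold. Intervals of ITGBL1, LAMB2, ITGA4, TNS3 and DST lie above 0 and those of TNS4 and ITGB3BP below it, and none of these members passed the adjusted threshold without the block.

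Over all genes, the arrays numbered 3 stood apart on the leading principal component (42.2% of the variance), at 31.1 under negative and 20.3 at ambient pressure, with the other arrays at -18.3 to -9.07. The pressure groups parted on the next component (30.9%). The labelled cell type was checked against its markers. The 8 measured keratinocyte markers had gene means of 8.10 to 12.5, and their summed level on the log2 scale was 14.1 to 14.2 under negative pressure and 14.1 at ambient pressure. KRT5, a keratin of basal keratinocytes, had 11.12, 11.08 and 11.11 under negative pressure, against 10.66, 10.66 and 10.99 at ambient pressure. Of these 8 markers 7 had differences above 0, with a median of 0.16, and the exception was SFN (-0.14). In 4 (50%) the groups did not overlap, all higher under negative pressure, against 17.3% of all genes. All 8 lay above the median gene mean, where the share was 24.2%. None passed the test without the block, and with it the desmosome genes DSG3 (0.63, limma adjusted p = 0.0146) and PKP1 (0.55, 0.0210) rose. For markers of other cells the gene means rest on other probe sets and are not ranked against these. They were 1.80 to 6.78 for 7 fibroblast genes and 1.62 to 3.95 for 4 melanocyte genes. For 5 endothelial genes they were 1.61 to 5.04, and for 3 leukocyte genes 2.3 to 4.87. A single marker of these other cells passed the test, CDH5, the cadherin of endothelial junctions. It was lower by a difference of -0.80 (limma adjusted p = 0.0325) at a mean of 4.41. The other endothelial genes differed by -0.13 (PECAM1), 0.03 (VWF), 0.19 (KDR) and 0.04 (TEK), the median of the list was 0.03, and its summed level was 6.50 to 6.61 under negative and 6.61 to 6.89 at ambient pressure. Any part of this in the members' values was not tested. Fewer cells and less RNA per cell cannot be told apart in such bulk samples. As a measure of RNA quality, the 3' probe sets of the ACTB control exceeded the 5' ones by 0.80, 0.85 and 0.42 under negative pressure, against 0.73, 0.64 and 0.27 at ambient pressure, lowest on replicate 3 in both groups (p = 0.5 between groups in an exact permutation test, two-sided, where the smallest possible is 0.1). For GAPDH the excess was 0.10 ± 0.06 under negative and 0.18 ± 0.03 at ambient pressure (SD over 3 arrays a group; exact permutation p = 0.2).

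Laminins are trimers of an alpha, a beta and a gamma chain that polymerise in basement membranes. All 5 chain genes above the median gene mean had differences above 0, from 0.11 to 0.50, and over all 10 chains 6 had, with a median of 0.11. Of all genes above the median gene mean, 5429 of 9887 had differences above 0. No chain passed without the block. LAMB3 (chr1:209614870-209652425 in GRCh38.p14, as all positions here), the beta chain of laminin-332, had 10.91, 10.73 and 11.09 under negative pressure, against 10.67, 10.70 and 10.88 at ambient pressure. The groups overlapped by 1 array, negative pressure replicate 2, which lay among the ambient arrays. The difference was 0.16 ± 0.13 (SE; 95% interval -0.14 to 0.45; limma adjusted p = 0.766). LAMA5 and LAMC1, chains of laminin-511, differed by 0.12 and 0.11, and LAMC1 by -0.06 with both replicate 3 arrays left out. LAMB1, the beta chain of laminin-111 and laminin-511, differed by 0.24.

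LAMB2 (chr3:49121114-49133050), the beta chain of laminin-521, differed the most among the chains above the median. Its values were 5.42, 5.07 and 5.67 under negative pressure and 4.88, 4.74 and 5.03 at ambient pressure. The groups did not overlap, and every same-numbered pair was higher under negative pressure, by 0.53, 0.33 and 0.64. The difference was 0.50 ± 0.16 (SE, n = 3 each; limma adjusted p = 0.249), and with the replicate block LAMB2 rose (adjusted p = 0.0289). LAMA2, the alpha chain of muscle laminin-211, lay below the median gene mean. It had 3.81, 4.14 and 4.08 under negative pressure, against 4.79, 4.65 and 4.35 at ambient pressure, with no overlap. The difference was -0.59 ± 0.15 (limma adjusted p = 0.138; 0.0332 with the replicate block, where it fell). With both replicate 3 arrays left out it was -0.74 (limma adjusted p = 0.0472).

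By the brightest probe set, 3 of the 4 hemidesmosome and anchoring genes had differences above 0, with a median of 0.16. Both chains of their integrin had differences below 0. Probe sets above the median gene mean went in both directions for DST, from -0.56 to 0.26, and for PLEC, at -0.41 and 0.07. None passed the test. ITGA6 (chr2:172427336-172506459), the alpha chain of the hemidesmosome integrin, had 9.67, 10.15 and 9.41 under negative pressure, against 10.08, 10.06 and 9.46 at ambient pressure. ITGB4 (chr17:75721459-75757818), its beta chain, had 8.53, 8.28 and 8.78 under negative pressure and 8.47, 8.65 and 9.02 at ambient pressure. Groups overlapped for both chains, with differences of -0.12 (95% interval -0.62 to 0.37) and -0.19 (-0.59 to 0.21). CD151, a tetraspanin that associates with laminin-binding integrins, had 8.09, 7.80 and 8.62 under negative pressure and 8.03, 8.24 and 8.65 at ambient pressure, a difference of -0.13. PLEC encodes plectin, which links the beta4 tail to keratins. It had 6.48, 6.28 and 6.63 under negative pressure, against 6.27, 6.49 and 6.43 at ambient pressure, a difference of 0.07. COL7A1, the collagen of anchoring fibrils, differed by 0.26 (95% interval -0.03 to 0.56). Limma adjusted p for these 5 genes lay at 0.501 or above.

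**Figure D2:**
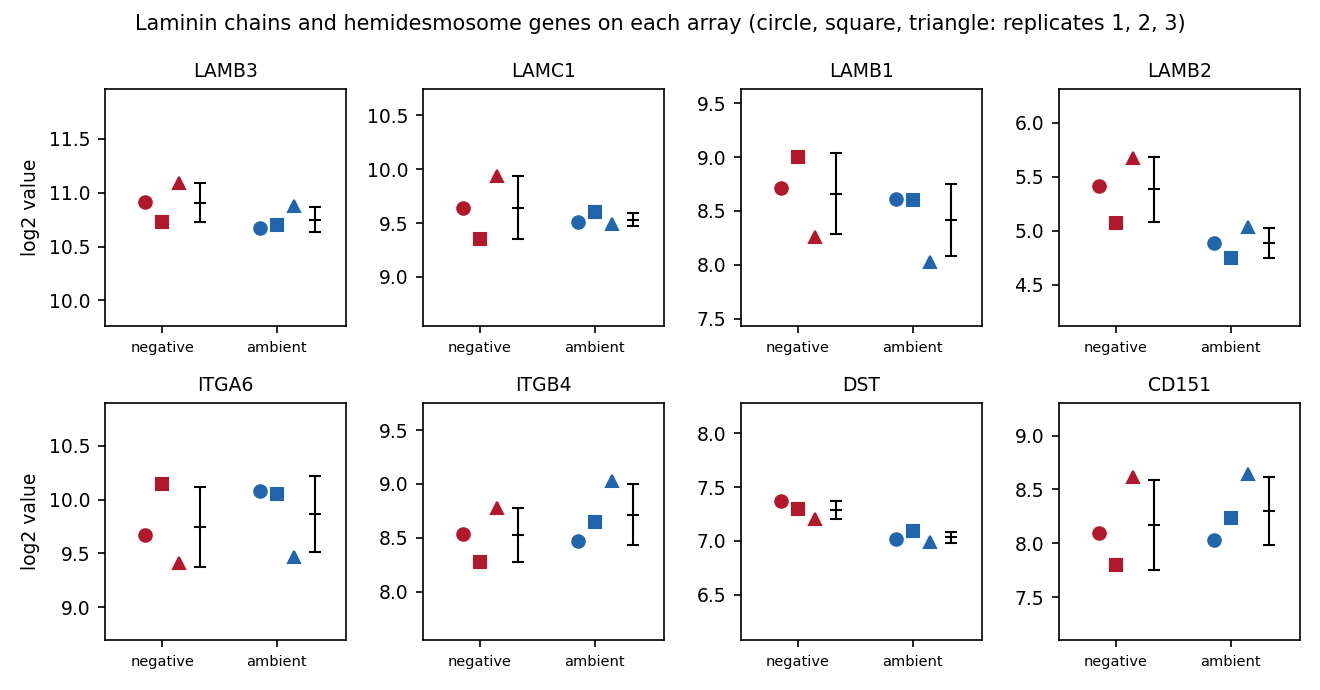
Log2 level on each array for 4 laminin chains (top) and 4 hemidesmosome genes (bottom), negative pressure in red on the left of each panel and ambient pressure in blue on the right. Circles, squares and triangles are replicates 1, 2 and 3, bars are the mean ± SD (n = 3 each), and panels span equal heights on the log2 scale. The groups lie apart for LAMB2 and DST and overlap for the other 6 genes.

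DST encodes dystonin, a family of long linker proteins made from several start sites. The skin form, BPAG1e, is the inner plaque protein of hemidesmosomes, while other forms bind actin and microtubules in nerve and muscle. Its start windows are shown because the probe sets of DST went in opposite directions. The RefSeq table of GRCh38.p14 gave 3 windows on chromosome 6, each of 300 bases and lying mostly upstream of a start, and the table did not pair them with the isoforms. They are printed 5′ to 3′ in the direction of transcription, with motif matches in capitals.
DST window 1, chr6:56954781-56955080, minus strand: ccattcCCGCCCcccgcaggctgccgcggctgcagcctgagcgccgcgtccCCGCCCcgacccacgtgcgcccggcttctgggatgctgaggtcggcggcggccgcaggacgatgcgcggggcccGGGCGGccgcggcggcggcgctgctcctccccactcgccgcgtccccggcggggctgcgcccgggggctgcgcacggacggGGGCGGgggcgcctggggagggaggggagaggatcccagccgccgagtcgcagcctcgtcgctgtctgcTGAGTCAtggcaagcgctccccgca
DST window 2, chr6:56851856-56852155, minus strand: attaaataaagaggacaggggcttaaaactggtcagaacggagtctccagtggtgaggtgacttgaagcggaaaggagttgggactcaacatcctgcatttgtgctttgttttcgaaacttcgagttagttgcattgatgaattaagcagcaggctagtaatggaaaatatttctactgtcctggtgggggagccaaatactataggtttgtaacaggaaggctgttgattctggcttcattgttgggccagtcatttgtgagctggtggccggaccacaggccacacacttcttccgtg
DST window 3, chr6:56642840-56643139, minus strand: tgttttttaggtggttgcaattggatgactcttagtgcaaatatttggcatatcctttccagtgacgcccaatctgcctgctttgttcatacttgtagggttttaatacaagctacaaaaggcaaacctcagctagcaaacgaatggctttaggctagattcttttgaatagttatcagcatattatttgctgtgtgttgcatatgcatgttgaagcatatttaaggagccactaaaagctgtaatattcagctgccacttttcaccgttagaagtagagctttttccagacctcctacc

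Motifs were searched on both strands. The AP-1 site, TGANTCA, was found in 7.71% of 35116 windows of the same length. The GC box, GGGCGG, was found in 45.0% of them. The AP-2 site, spelt GCCNNNGGC, was found in 23.2%. No matches overlap in the printed windows. The first DST window was GC-rich (80%) and held 4 GC boxes and 1 AP-1 match, while the other two were 46.3% and 39.3% GC and held no match. Over the 43 members with a start window, at least 1 window held an AP-1 match in 6, a GC box in 27 and an AP-2 match in 19. These counts are per gene, over 67 windows, and some genes have several. They cannot be set against the shares above, which are per window. A match is a run of letters and shows no binding.

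The DST probe set with the highest mean had 7.37, 7.29 and 7.20 under negative pressure and 7.01, 7.09 and 6.99 at ambient pressure. Its groups did not overlap, and the difference was 0.26 ± 0.11 (SE; limma adjusted p = 0.407). Another, for which the platform annotation cites the reference transcript of BPAG1e, had 7.003, 6.81 and 6.82 under negative pressure, against 7.46, 7.66 and 7.20 at ambient pressure. Here too the groups lay apart, but in the other direction, with a difference of -0.56 ± 0.14 (limma adjusted p = 0.160 over all 41091 single-gene probe sets). The other DST probe sets above the median gene mean differed by 0.21, 0.18 and -0.12. The difference between probe sets was not tested.

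Of the integrin alpha subunits, 10 of 18 had differences above 0, with a median of 0.04, and none passed the test. ITGA3, which pairs with beta1 to bind laminin-332, had 7.62, 7.28 and 7.62 under negative pressure, against 7.55, 7.61 and 7.59 at ambient pressure. The difference was -0.08 (95% interval -0.37 to 0.21). ITGA2, the collagen-binding chain of keratinocytes, had 9.31, 9.30 and 8.51 under negative pressure and 9.43, 9.33 and 8.91 at ambient pressure, a difference of -0.18. In both genes the groups overlapped, and on the ITGA2 probe set used the lowest array of each group was replicate 3. The other ITGA2 probe set above the median gene mean differed by -0.50, also with overlapping groups. Its limma adjusted p was 0.351 over all single-gene probe sets.

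Several alpha chains bind fibronectin, and their differences lay on both sides of 0, with ITGA8 at -0.07. ITGA5, the alpha chain of the main fibronectin receptor, had 6.77, 6.87 and 6.74 under negative pressure, against 6.60, 6.68 and 6.69 at ambient pressure. All 3 negative pressure arrays lay above all ambient arrays, but the difference was small, 0.14 (95% interval -0.10 to 0.38; limma adjusted p = 0.742). ITGAV, the chain shared by vitronectin and fibronectin receptors, had 10.51, 10.64 and 10.20 under negative pressure and 10.51, 10.42 and 9.61 at ambient pressure. The difference was 0.27 (95% interval -0.25 to 0.79), and without ambient replicate 3 it was -0.02. ITGA4 (chr2:181457205-181538940), best known on leukocytes as the chain that binds VCAM1 and fibronectin, had 7.64, 7.75 and 7.52 under negative pressure, against 7.36, 7.24 and 7.26 at ambient pressure. Its groups did not overlap, and the difference was 0.36 ± 0.11 (SE; limma adjusted p = 0.239). All 4 of its probe sets above the median gene mean were higher under negative pressure, by 0.30 to 0.72. The widest alpha chain difference, 0.45, was that of ITGA1, a collagen-binding chain, at a mean of 3.71. It shrank to 0.14 with both replicate 3 arrays left out.

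Of the 7 beta subunits 2 had differences above 0, the median was -0.08, and none passed the test. ITGB1, the common partner of most alpha chains, had 11.55, 11.72 and 11.14 under negative pressure and 11.58, 11.66 and 11.17 at ambient pressure. Group means were 11.47 in both, and the 95% interval of the difference ran from -0.42 to 0.41. ITGB5, the partner of alphaV that binds vitronectin, had 8.92, 8.68 and 8.78 under negative pressure, against 8.85, 9.02 and 8.82 at ambient pressure, a difference of -0.11. ITGB7, a lymphocyte homing chain, differed by 0.07.

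ITGB8, whose alphaV partner activates latent TGF-beta, had the widest spread of any member. Its values were 9.43, 9.51 and 7.93 under negative pressure and 9.59, 9.30 and 8.51 at ambient pressure. Replicate 3 was lowest in both groups, and the difference of -0.18 ± 0.41 (SE) became 0.03 with both replicate 3 arrays left out. ITGB8-AS1, a transcript named for lying antisense to it, overlaps its start on chromosome 7 and had 6.31, 6.06 and 6.87 under negative pressure, against 6.35, 6.34 and 6.77 at ambient pressure. In this gene replicate 3 was highest in both groups. The ITGB8 start window is shown because it lies inside the span of ITGB8-AS1 (chr7:20328301-20331762). It is 71.7% GC and holds 2 GC boxes, in capitals.
ITGB8 window, chr7:20330650-20330949, plus strand: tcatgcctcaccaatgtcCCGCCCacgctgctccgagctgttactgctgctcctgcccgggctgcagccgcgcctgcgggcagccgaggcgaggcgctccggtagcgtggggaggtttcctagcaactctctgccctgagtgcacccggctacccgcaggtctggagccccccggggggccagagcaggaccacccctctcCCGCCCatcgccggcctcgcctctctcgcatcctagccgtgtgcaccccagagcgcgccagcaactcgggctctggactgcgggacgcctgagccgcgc

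**Figure D3:**
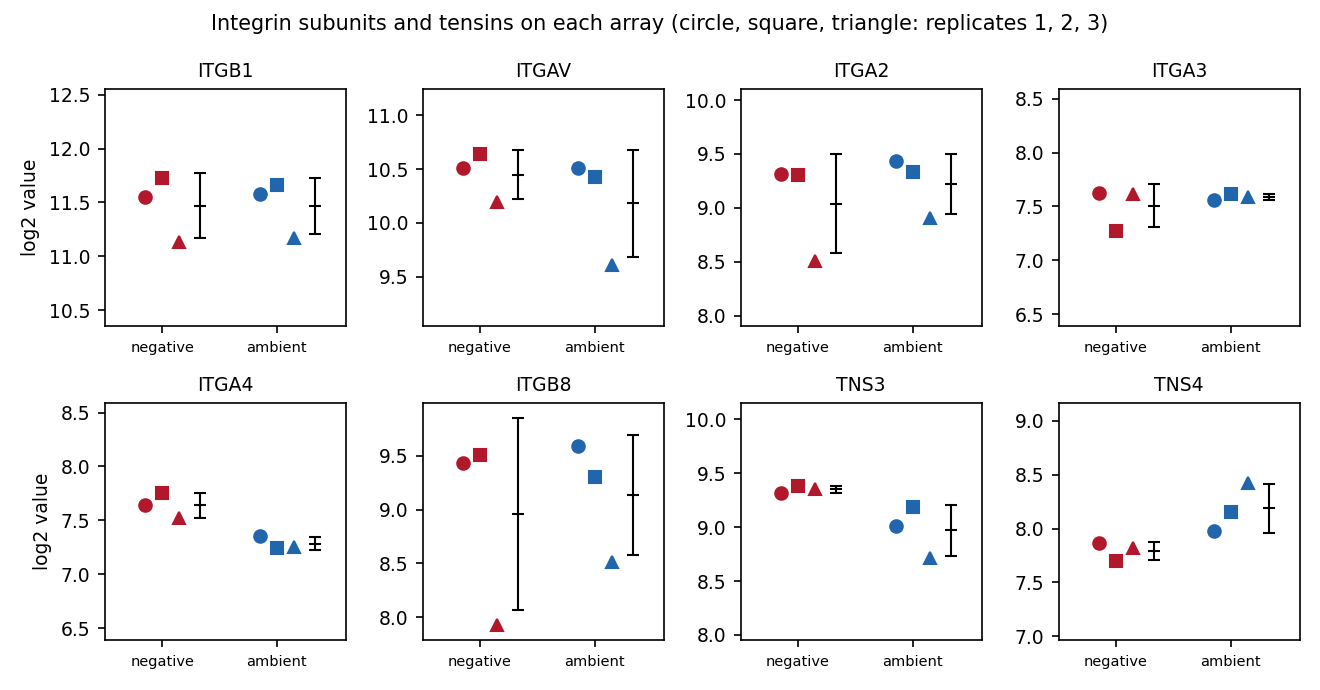
Log2 level on each array for 6 integrin subunits and 2 tensins, negative pressure in red on the left of each panel and ambient pressure in blue on the right. Circles, squares and triangles are replicates 1, 2 and 3, bars are the mean ± SD (n = 3 each), and panels span equal heights on the log2 scale. Groups overlap for ITGB1, ITGAV, ITGA2 and ITGB8, where replicate 3 is the lowest array of both groups, and for ITGA3, and they lie apart for ITGA4, TNS3 and TNS4.

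Talins and kindlins bind the beta tail from inside the cell and activate the integrin. Of the 7 genes of activators and the integrin-linked kinase complex 3 had differences above 0, with a median of -0.03. TLN1, talin, had 6.01, 5.51 and 6.18 under negative pressure, against 5.54, 5.46 and 6.15 at ambient pressure, a difference of 0.18 (95% interval -0.32 to 0.68). FERMT1, the kindlin of epithelia, had 9.44, 9.33 and 9.47 under negative pressure and 9.61, 9.57 and 9.65 at ambient pressure. Its groups did not overlap, and the difference was -0.20 ± 0.11 (SE; limma adjusted p = 0.553). Its other probe sets above the median gene mean were also lower, by -0.34 and -1.01. For the one at -1.01 the groups overlapped, and the SE was 0.59. There replicate 3 lay above the mean of replicates 1 and 2 by 2.07 under negative and 1.29 at ambient pressure. ILK, integrin-linked kinase, had 9.32, 9.08 and 9.28 under negative pressure, against 9.22, 9.11 and 9.58 at ambient pressure, a difference of -0.08. PARVA, its parvin partner, differed by -0.03 (95% interval -0.28 to 0.23). The other PARVA probe sets above the median gene mean differed by 0.05 and by -0.50. For the lower one the groups did not overlap (limma adjusted p = 0.265 over all single-gene probe sets). FERMT2, the widely expressed kindlin, differed by -0.06 (-0.57 to 0.46).

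Of the 8 adaptor and kinase genes 4 had differences above 0, with a median of 0.01. VCL (vinculin, which links talin to actin) had 10.05, 9.88 and 9.94 under negative pressure, against 10.06, 10.04 and 10.01 at ambient pressure. The difference was -0.08, with a narrow 95% interval of -0.33 to 0.16. PXN, the scaffold paxillin, had 8.44, 8.37 and 8.25 under negative pressure and 8.36, 8.54 and 8.61 at ambient pressure, a difference of -0.15. ZYX, zyxin, which gathers at adhesions under tension, had 7.99, 7.72 and 8.28 under negative pressure and 7.68, 7.78 and 8.23 at ambient pressure, a difference of 0.10. PTK2, focal adhesion kinase, had 8.74, 8.73 and 8.12 under negative pressure, against 8.62, 8.66 and 8.24 at ambient pressure. Groups overlapped for all of these genes. The PTK2 difference was 0.02 (95% interval -0.41 to 0.45), and it was -0.02 with each array centred on its median.

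Tensins tie integrin tails to actin, and 2 of them had differences of opposite sign. TNS3 (chr7:47275154-47582586) had 9.31, 9.38 and 9.36 under negative pressure, against 9.01, 9.18 and 8.72 at ambient pressure. TNS4 (chr17:40475834-40501623), a short tensin without the actin-binding part, had 7.86, 7.70 and 7.82 under negative pressure, against 7.98, 8.16 and 8.43 at ambient pressure. By the brightest probe set, the groups of both genes did not overlap and the ambient arrays spread wider. The differences were 0.38 ± 0.14 for TNS3 (SE; limma adjusted p = 0.301) and -0.39 ± 0.14 for TNS4 (SE; limma adjusted p = 0.289). Neither passed the test with the block (adjusted p = 0.0993 and 0.0951). The other TNS4 probe set above the median gene mean differed by -0.09, and its groups overlapped.

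Above the median gene mean, the largest difference in each direction belonged to a gene with an integrin name that encodes no subunit. Of the 11 genes that carry such a name without encoding a subunit or chain, 6 had differences above 0, with a median of 0.01. ITGBL1 (chr13:101452675-101720856) encodes a secreted protein with repeats like those of beta integrins. Its brightest probe set had 7.97, 8.10 and 7.94 under negative pressure, against 7.58, 7.18 and 6.87 at ambient pressure. The groups did not overlap, and the difference was 0.79 ± 0.17 (SE; limma adjusted p = 0.0851; 0.00809 with the replicate block, where it rose). The other ITGBL1 probe sets above the median gene mean went the other way, by -0.22, -0.57 and -0.66, also without overlap. Over the mean of its probe sets, ITGBL1 differed by -0.08. ITGB3BP, centromere protein R, which also binds the beta3 tail, had 8.56, 8.48 and 8.34 under negative pressure, against 8.96, 8.99 and 8.81 at ambient pressure. Its groups did not overlap, the difference was -0.46 ± 0.12 (SE; limma adjusted p = 0.136), and with the replicate block it fell (adjusted p = 0.0316). ITGB1BP1, which competes with talin for the beta1 tail, had 9.08, 9.19 and 8.71 under negative pressure and 9.16, 9.10 and 9.34 at ambient pressure, a difference of -0.21 that was 0.00 with both replicate 3 arrays left out.

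The members had 173 single-gene probe sets, of which 70 lay above the median gene mean. None of the 173 passed an adjusted p of 0.05 in limma, fitted over all single-gene probe sets (lowest 0.108). Of all 41091 probe sets 266 passed (0.647%). Without adjustment 22 of the 173 had a p under 0.05, some of them from the same gene. The share over all probe sets was not counted, so nothing is read from this count. Of 20 members with several probe sets above the median, 12 had 1 direction throughout and 8 did not: DST, FERMT2, ITGA6, ITGB1, ITGB1BP1, ITGBL1, PARVA and PLEC. The spread between probe sets of a gene had a median of 0.26 and was largest for ITGBL1, at 1.45.

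**Figure D4:**
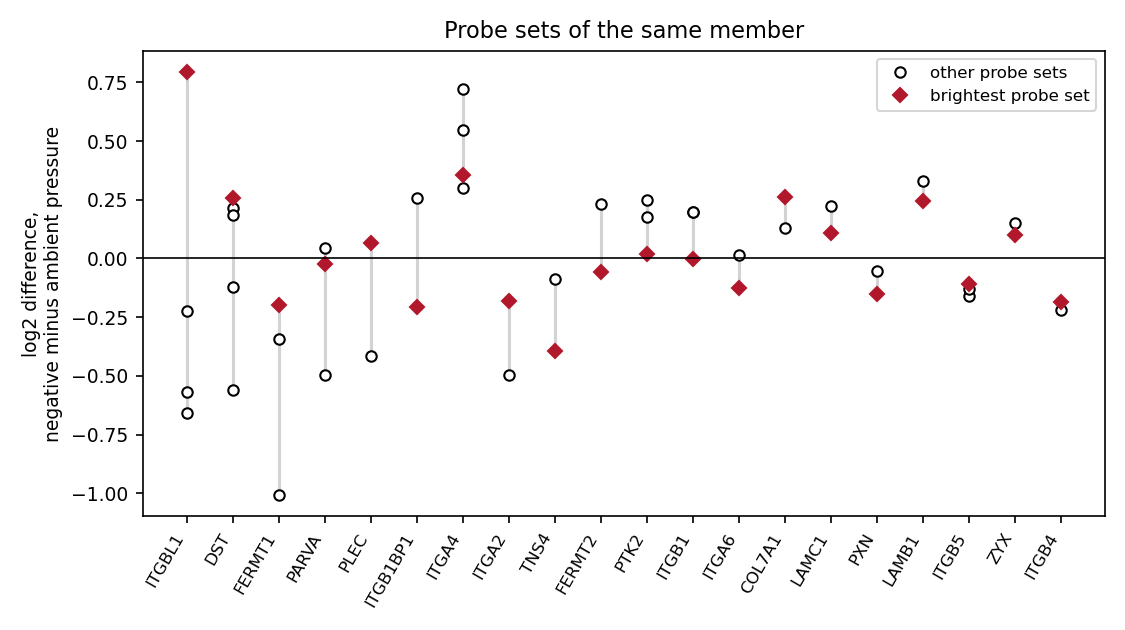
Log2 difference, negative minus ambient pressure, of every probe set above the median gene mean for the 20 members with several such probe sets. Each column is a gene, red diamonds mark the brightest probe set, which was used for the gene, and open circles mark the others. Probe sets of DST and ITGBL1 stand on both sides of 0, and those of ITGA4 and FERMT1 stand on 1 side each.

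For some members the replicate 3 arrays stood farther from the other arrays of their group than the pressure groups stood from each other. In 7 of the 38 members above the median gene mean, replicate 3 lay over 0.3 below the mean of replicates 1 and 2 in both groups, against 16.1% of all genes above that mean. These were the integrin genes ITGA2, ITGA6, ITGAV, ITGB1 and ITGB8, with LAMB1 and PTK2. In 6 of the 38, it lay over 0.3 above in both groups, against 4.79% of all such genes: CD151, ITGB4, ITGB8-AS1, LAMA5, TLN1 and ZYX. The chains of the hemidesmosome integrin went opposite ways, ITGA6 by -0.49 under negative and -0.61 at ambient pressure, and ITGB4 by 0.37 and 0.47. The offset was not uniform across probe sets: the second ITGA6 probe set had offsets of 0.13 and -0.08, and the second ITGA2 probe set 0.46 and 0.39, against -0.80 and -0.47 for the first. All 3 ITGB1 probe sets above the median gene mean had offsets between -0.70 and -0.45. The ACTB 3' excess was also lowest on replicate 3, 0.42 under negative and 0.27 at ambient pressure, where the other arrays had 0.64 to 0.85. Its part in these offsets was not tested.

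**Figure D5:**
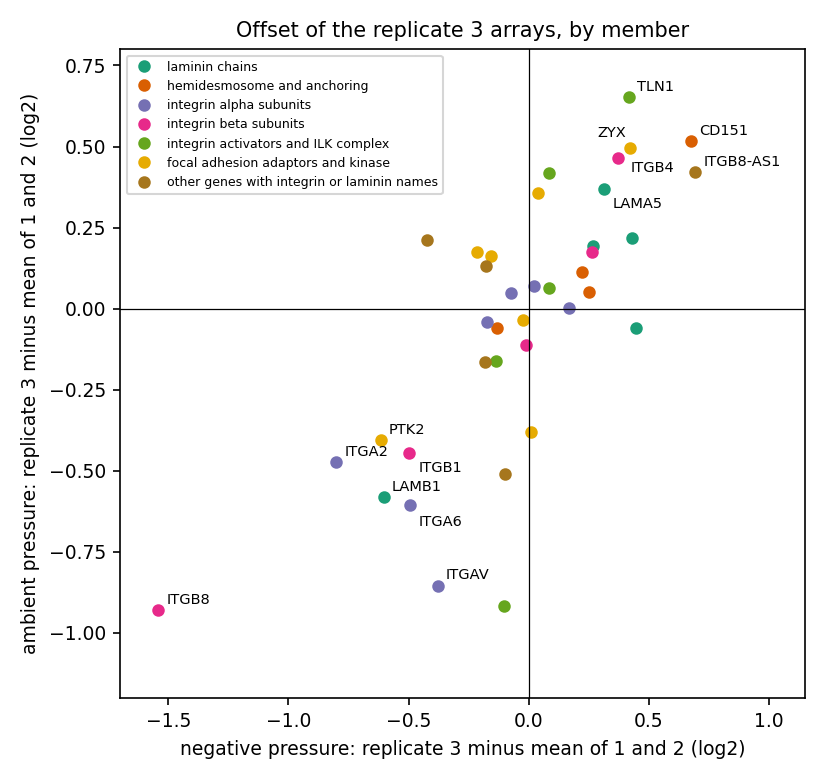
Offset of replicate 3, its log2 level minus the mean of replicates 1 and 2, under negative pressure (horizontal) and at ambient pressure (vertical), for the 38 members above the median gene mean, coloured by role. Named members lie over 0.3 from 0 in the same direction in both groups, with ITGB8 farthest at -1.54 and -0.93.

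Of the 102 other adhesion genes measured, none passed an adjusted p of 0.05 in limma, 12 (11.8%) had an unadjusted p under 0.05, against 11.7% of all genes, and 57 had differences above 0. With the replicate block 5 (4.90%) passed, against 4.94% of all genes, so both shares lay near the background. Among 25 matrix and basement membrane genes 20 had differences above 0, with a median of 0.07, where 10568 of all 19775 genes had. In this list 2 genes (8%) had an unadjusted limma p under 0.05, against 11.7% of all genes. NTN4, netrin-4, which binds laminin gamma chains, had 7.63, 7.76 and 7.28 under negative pressure, against 7.01, 6.92 and 6.69 at ambient pressure. The groups did not overlap, the difference was 0.69 ± 0.15 (SE; limma adjusted p = 0.0899), and with the block it rose (adjusted p = 0.00576). FRAS1, an extracellular protein that anchors embryonic epidermis, differed by 0.57 (limma adjusted p = 0.207; 0.0232 with the block, where it rose). TNC, the matrix protein tenascin-C, differed by -0.46.

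Scaffolds and actin links numbered 31, of which 13 had differences above 0 (median -0.02). NEXN, the actin-binding protein nexilin, had 3.46, 3.57 and 3.04 under negative pressure, against 4.96, 4.57 and 3.97 at ambient pressure, without overlap. The difference was -1.14 ± 0.24 (SE; limma adjusted p = 0.0749; 0.0011 with the block, where it fell), at a mean below the median gene mean. PARVB, a parvin partner of ILK, differed by -0.48 (limma adjusted p = 0.292; 0.0415 with the block, where it fell), and KANK2, which binds talin at the rim of adhesions, by 0.38. Of 34 adhesion signalling genes 18 had differences above 0 (median 0.01). EFS, a docking protein of the p130Cas family, differed by 0.53 (limma adjusted p = 0.257; 0.0174 with the block, where it rose), PEAK1, a pseudokinase of adhesions, by 0.50 and ELMO2, which acts with DOCK proteins on Rac, by 0.34. Among 12 genes of adhesion turnover and microtubule capture 6 had differences above 0 (median 0.03), and the smallest p was that of PHLDB1, which anchors microtubules near adhesions, with a difference of 0.32 (limma adjusted p = 0.594).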

How the data were processed

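RNA of 6 HaCaT cultures was hybridised to arrays of 54675 probe sets. The log2 values are those the authors deposited. Per the submitters' processing notes, they were made with RMA in Affymetrix Expression Console 1.2. They ran from 0.890 to 13.4. Array medians were 3.81 to 3.89. The sources used here name no scan date or array batch.

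Sample titles gave the groups and the replicate numbers. One gene symbol was annotated to 41091 probe sets, several to 1801 and none to 11721, and 62 were controls. Only probe sets with 1 symbol named a gene, so 7 that name a member beside another gene were left out. For each of 19775 genes the probe set of highest mean was used, with no filter on low values. Of the 20 genes named in the rule, 1 had no such probe set here.

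Negative minus ambient pressure was fitted in R 4.3.3 with limma 3.58.1 (lmFit, eBayes), without a block, with Benjamini-Hochberg adjustment over all genes at 0.05. Every adjusted p comes from limma, and intervals are 95%. The fit was tested on simulated data. If cultures share a preparation, p-values measure only the spread between these samples. Same-numbered arrays of the 2 groups deviated together from their group means, with r of 0.27 (replicate 1), 0.27 (replicate 2) and 0.53 (replicate 3) across genes, each above 0.1, so the blocked fit is given beside the unblocked one where it changes a call. Unless the block is named, every value is from the fit without it. No label states a shared day or batch. Negative pressure replicate 2 with ambient replicate 1 gave 0.43, and negative pressure replicate 1 with ambient replicate 2 gave 0.15. Deviations cancel out within a group, so an offset shared by the replicate 3 arrays also raises r among replicates 1 and 2. These r values therefore cannot tell whether arrays numbered 1 or 2 were paired.

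The members and all lists were chosen with earlier results of these data known. Values of every array are given for members past the threshold in either fit, for fixed laminin-332, hemidesmosome, integrin and focal adhesion genes, and for the 3 largest differences in each direction above the median gene mean. Other lists give up to 3 genes by smallest p. Array values of ITGA4, ITGB8, ITGB8-AS1 and KRT5, the differences of CDH5 and the probe sets of DST, ITGBL1 and FERMT1 were added after their values were seen. Alternatives were other normalizations, probe set rules, a filter, variance models, array weights, the block, another threshold and left-out arrays. Start windows and gene positions come from RefSeq tables of GRCh38.p14.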

Additional observations from a re-analysis of the deposited data

How the results depend on the processing

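With the replicate block, 976 genes passed over all genes, 2 members passed higher (ITGBL1, LAMB2), 2 lower (ITGB3BP, LAMA2), and 5 other adhesion genes passed. The block changed no other call among the 34 members whose dependence was followed. Array weights gave 1145 genes, 3 members higher (with ITGA4), 2 lower and 5 other adhesion genes. Leaving out both replicate 3 arrays gave 372 genes, 0 members higher, 1 lower (LAMA2) and 3 other adhesion genes. A threshold of 0.1 gave 352 genes, 1 member higher (ITGBL1), 0 lower and 2 other adhesion genes. The count of other adhesion genes was 3 with the mean of all probe sets, and 1 with quantile normalization repeated or the probe set of largest variance. Leaving out 1 array gave 7 (without negative pressure replicate 2 or ambient replicate 2) to 145 genes, 0 members in each direction and 0 to 1 other adhesion genes. The members' median difference stayed between -0.02 and 0.05 in the alternatives run.

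Of 543 values of the 34 members, 490 kept their direction and their side of the threshold, 10 passed it and 43 turned their sign; the cause was not tested. With the mean of all probe sets the turned differences were PLEC -0.17, DST -0.020, ITGB1 0.045, VCL 0.068 and ITGBL1 -0.084. With the probe set of largest variance they were ITGB4 0.16, PLEC -0.41, DST -0.56, ITGB1 0.20 and VCL 0.22. With array weights they were LAMC1 -0.027, PLEC -0.026 and ILK 0.037. With both replicate 3 arrays left out they were LAMC1 -0.059, PLEC -0.00028, ITGB1 0.016, ITGB8 0.026, ILK 0.034 and ITGB1BP1 0.00421. PTK2 was -0.00255 with quantile normalization, -0.019 with median centring and -0.00316 with cyclic loess. Leaving out 1 array spanned 0 for ITGAV (-0.017 to 0.43), ITGA2 (-0.34 to 0.084), ITGA3 (-0.14 to 0.035), ITGA6 (-0.33 to 0.039), ITGB1 (-0.15 to 0.16), ITGB8 (-0.49 to 0.34), CD151 (-0.36 to 0.053), PLEC (-0.018 to 0.16), LAMC1 (-0.039 to 0.26), FERMT2 (-0.36 to 0.10), ILK (-0.17 to 0.062), PTK2 (-0.11 to 0.23) and ZYX (-0.042 to 0.265). With 3 arrays per group, the median 95% interval of a member reached 0.30 to either side.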

Other observations

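Probe sets that name a member together with another gene entered no comparison and were not tested. Of 4 that name LINC02478 with ITGB6, the beta chain of an epithelial alphaV integrin, the brightest had 9.20, 9.33 and 8.86 under negative pressure, against 8.93, 8.90 and 8.49 at ambient pressure, a difference of 0.36. Its groups overlapped, since negative pressure replicate 3 lay below the ambient replicates 1 and 2. Both of the next brightest were higher on every negative pressure array than on any ambient array, by 0.55 and 0.44 on average, and the dimmest, with a mean of 2.40, differed by -0.07. The probe set that names LIMS1, a partner of integrin-linked kinase, with LIMS3 and LIMS4 differed by -0.01, and the one that names LIMS1 with LIMS4 by -0.04.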
